A study of Homo sapiens with 9 samples.

Results

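SNU16 is an established human gastric carcinoma line, and the labels give its genotype as WT. Cells exposed to 7.69 µM 5-fluorouracil (5-FU) for 24 h were compared with untreated control cells of the same 24 h time, with 3 libraries in each group, that is 6 of the 9 libraries of the series. The remaining 3 libraries, from cells given 80 µM hydrogen peroxide (H2O2) for 24 h, entered the statistical fit only through the estimate of spread. The measured values were FPKM (fragments scaled for transcript length and library size) of 90652 transcripts, most of them of non-coding classes, under 28717 gene identifiers. FPKM were summed per gene, and 9410 of the 28717 genes reached 0.5 FPKM in at least 3 of the 6 libraries and were tested. Of these, 6458 were protein-coding genes, 2331 long non-coding RNA (lncRNA) genes and 15 of other classes in the GENCODE V29 annotation, and 606 were not in that release. Where a protein-coding symbol is named, its FPKM should not be read as the level of its mRNA. Of the 42 protein-coding genes called, a retained-intron transcript led the sum in 35. The leading transcript was assembled from the reads in 3, not in V29 in 2, and of the processed-transcript and protein-coding classes in 1 each. Genes named without a call also differ in this, and the leading transcripts of DKC1 and EXOSC8, for example, are not in V29.

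5-FU is a pyrimidine antimetabolite. One of its metabolites blocks thymidylate synthase, which starves the cell of thymidine for DNA replication, and others are built into RNA and DNA in place of uridine and thymidine. In RNA it is known to disturb pseudouridine synthases and the processing of ribosomal RNA, and in DNA it is known to stall replication forks and to activate checkpoint kinases and p53. LncRNA genes are commonly named by where they lie: a -DT gene starts beside a coding gene and runs the other way, an -AS gene overlaps a coding gene on the other strand, a LINC gene lies between coding genes, and an SNHG gene carries small nucleolar RNAs in its introns.

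The sequencing depth behind the FPKM is unknown, and intervals that would need counts are therefore left out. Sums of the listed FPKM ran from 56337.8 to 60642.1, the highest being that of 5-FU replicate 3. Pairs of 5-FU libraries correlated at 0.927 to 0.940 across genes and pairs of control libraries at 0.933 to 0.934, with genes not being independent replicates. On the first principal component of the 6 libraries, 5-FU replicates 1, 2 and 3 lay at 11.73, 15.07 and 31.79, and all 3 controls between -19.56 and -19.46. Replicate 3 of 5-FU stood apart from the other 5-FU libraries, and its median deviation from the control mean over all genes was 0.12 on the log2 scale, against 0.0044 and 0.0090 for replicates 1 and 2. Libraries were made with a strand-marking kit, but the sources used here do not say whether strand was used in quantification. Reads of genes that overlap on opposite strands may thus have been counted to either gene, and antisense values are uncertain. The labels do not say whether replicates were separate cultures, and the p-values therefore reflect the spread among these libraries alone, which may be technical. Of 12 markers listed for a gastric epithelial line, 9 were tested, and CLDN3, CLDN4 and MYC had no value. KRT8, KRT18, KRT19, CDH1, EPCAM and MUC1 were at over 10 FPKM in every library. CEACAM5, KRT7 and FGFR2 were not, with highest values of 11.5, 9.21 and 3.77 FPKM. Of 14 markers of fibroblasts, leukocytes and endothelium, 8 had a value and the other 6 were not analysed here. None of the 8 reached the level for testing, the highest value being 0.724 FPKM (COL1A1), with PTPRC, COL1A2, COL3A1 and VWF listed at 0 in all 6 libraries. In a table of mostly non-coding transcripts these values are not mRNA levels.

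After 5-FU, most genes listed under DNA replication, recombination repair and chromosome segregation had a higher mean, although few passed the test singly (7 of 42, 3 of 40 and 3 of 55 rose). Most divergent, antisense and snoRNA host lncRNA genes had a lower mean. In all, 82 of 9410 genes passed the test, 0.871% of those tested (limma on log2(FPKM + 0.5), Benjamini-Hochberg adjusted p under 0.05). Of these, 53 genes rose (0.563%) and 29 fell (0.308%). The genes that rose did so by 0.75 to 2.55 on the log2 scale (median 1.17), and those that fell had log2 differences between -2.29 and -0.86 (median -1.12). Protein-coding genes in V29 made up 36 of the 53 that rose and 6 of the 29 that fell, against 6458 of the 9410 genes tested. The other classes gave 17 and 23. The protein-coding share was thus close to that of all genes tested among the genes that rose, and below it among those that fell. Groups did not overlap in all 82 called genes, and also did not overlap in 13.1% of all genes tested with 5-FU higher and in 9.55% with 5-FU lower. Over all 9410 genes, 5104 (54.2%) had a higher mean log2 value in 5-FU and the median log2 difference was 0.036. The threshold on levels was passed through the 5-FU libraries alone by 8 of the called genes and through the controls alone by 6, against 68 and 93 of all genes tested. Cells were measured in bulk, so a larger share of cells in a phase of the cell cycle and more RNA per cell cannot be told apart.

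The number of calls changed when single libraries were left out. Leaving out control replicate 1, 2 or 3 left 1, 1 or 2 calls. Leaving out 5-FU replicate 1, 2 or 3 left 7, 0 or 3, and for the count of 0 limma had 1377 genes at an unadjusted p under 0.05. Leaving out H2O2 replicate 1, 2 or 3 left 20, 78 or 92. The direction did not change in any of these fits for any of the 82 genes. Their groups did not overlap, so leaving out 1 library could not have reversed it. Their median absolute log2 difference was between 1.11 and 1.17, against 1.16 with all libraries. These genes were selected for their differences in the same libraries, so neither result is independent evidence.

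**Figure D1:**
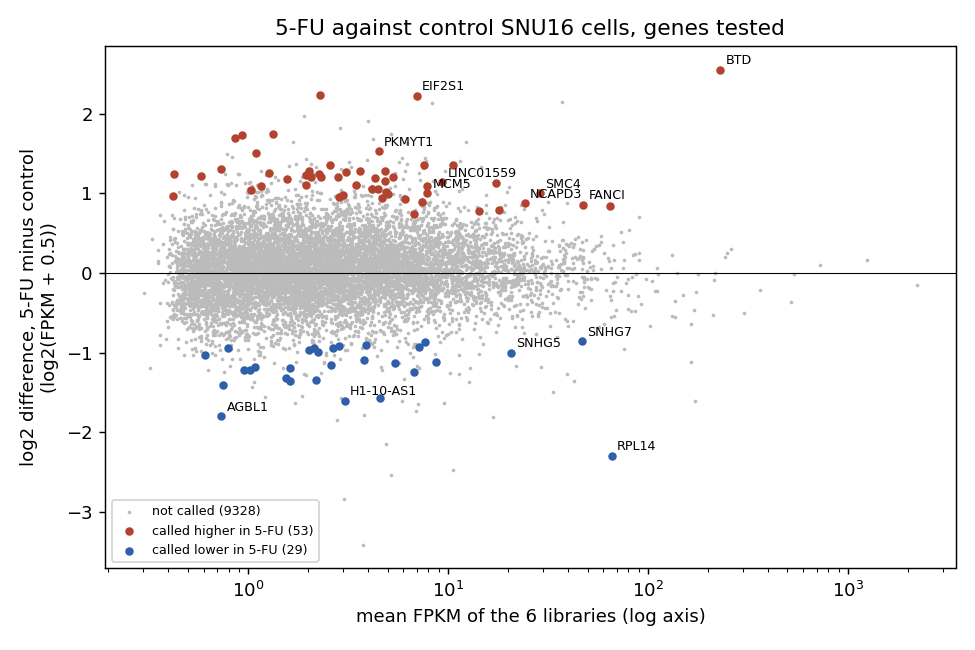
Each point is a gene, with its mean FPKM over the 6 libraries on a log axis and its log2 difference, 5-FU minus control, on the vertical axis. The 53 genes called higher are red and the 29 called lower are blue, and BTD, EIF2S1 and RPL14 lie farthest from 0 among the called genes with a symbol.

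Origin licensing and the replication fork formed the list with the highest median. Of its 42 tested genes, 36 had a higher mean in 5-FU, 7 rose and none fell, against 0.563% and 0.308% of all genes tested. In 23 (54.8%) the groups did not overlap with 5-FU higher, against 13.1% of all genes tested. The list's median log2 difference was 0.54, and between 0.513 and 0.585 with 1 of the 6 libraries left out. The medians of single 5-FU libraries against the control mean were 0.48, 0.46 and 0.70 in replicates 1, 2 and 3. This list, like the others, was chosen with results of these data already known, so its direction is not independent evidence.

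The 7 that rose cover successive steps of replication. ORC6, a subunit of the origin recognition complex, had 22, 23.5 and 23.6 FPKM in 5-FU libraries, against 12.4, 14.5 and 12.4 FPKM in control libraries (log2 difference 0.79, SE 0.14, limma adjusted p = 0.0301). POLA2, the B subunit of the polymerase alpha-primase complex, had 17.5, 17.9 and 19.3 FPKM in 5-FU libraries, against 10.1, 11.2 and 10.02 FPKM in control libraries (log2 difference 0.78, SE 0.13, limma adjusted p = 0.0293). Each 5-FU library of both genes lay well above each control library, and the 5-FU libraries differed little among themselves. PRIM1, the catalytic primase subunit that lays down RNA primers, had 3.03, 3.74 and 3.43 FPKM in 5-FU libraries, against 1.15, 0.843 and 1.69 FPKM in control libraries (log2 difference 1.20, SE 0.20, limma adjusted p = 0.0301). MCM10, an activator of the replicative helicase, had 4.54, 4.15 and 5.02 FPKM in 5-FU libraries, against 1.56, 1.71 and 1.57 FPKM in control libraries (log2 difference 1.26, limma adjusted p = 0.0201). PRIM1 and MCM10 thus stood above the controls in every 5-FU library, and the controls of PRIM1 were more spread than those of MCM10. The helicase subunits MCM5 and CDC45 and the RecQ helicase RECQL4 also rose, with log2 differences of 1.002, 0.92 and 1.28.

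Other members of the same list were higher without passing the test. RFC4, a subunit of the clamp loader, had 6.88, 14.03 and 10.5 FPKM in 5-FU libraries, against 3.44, 3.95 and 4.399 FPKM in control libraries (log2 difference 1.26, limma adjusted p = 0.0555). MCM2, another helicase subunit, had 1.83, 1.64 and 1.998 FPKM in 5-FU libraries, against 0.5403, 0.586 and 0.822 FPKM in control libraries (log2 difference 1.02, limma adjusted p = 0.0584). POLE, the catalytic subunit of the leading-strand polymerase, had 19.3, 17.2 and 19.6 FPKM in 5-FU libraries, against 11.9, 11.6 and 12.2 FPKM in control libraries (log2 difference 0.63, limma adjusted p = 0.0594). In all 3, named here after their values were seen, every 5-FU library lay above every control library.

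**Figure D2:**
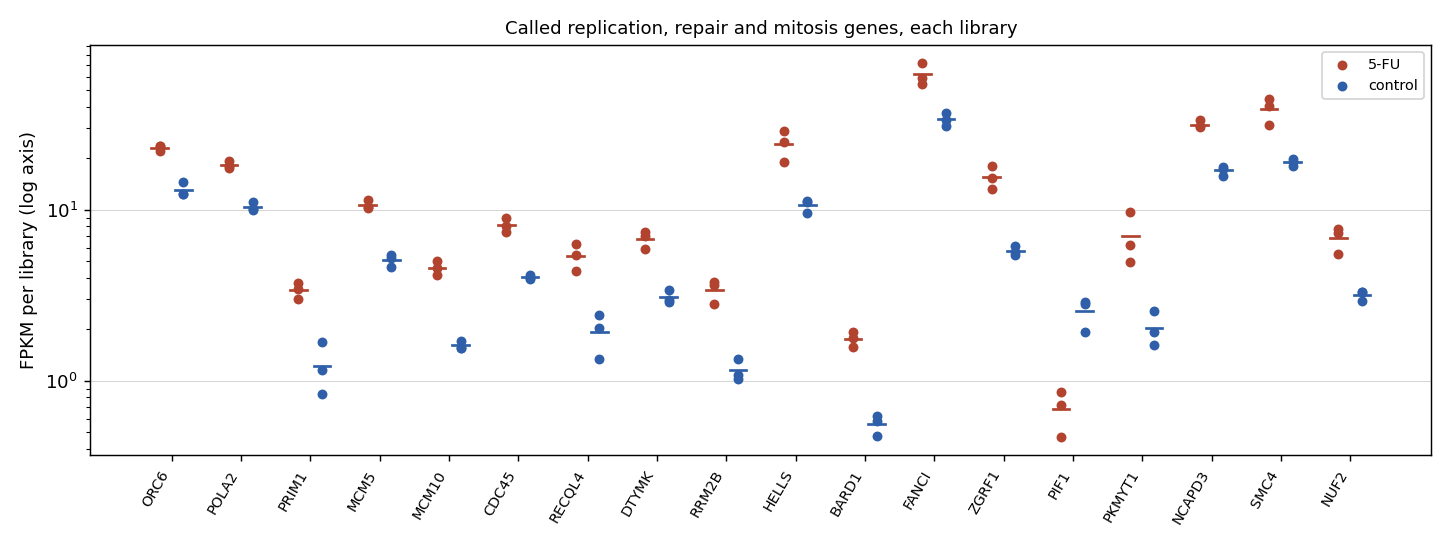
FPKM of 18 called genes of replication, nucleotide supply, chromatin, repair and mitosis on a log axis, each point a library and each bar a group mean (n = 3), with 5-FU left of control. The groups do not overlap in any of the genes drawn, and PIF1 is the one gene of these that is lower in 5-FU.

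Promoters of these genes were read from RefSeq (GRCh38.p14), as 250 bases before to 50 after each gene's start, since genes that move together invite a look at shared letters there. Promoter windows belong to the gene's RefSeq start and not to the listed transcripts, which are mostly of non-coding classes. E2F-type letters (the run TTCCCGC, the run TTGGCGC, the run TTCGCGC or the run TTGCCGC, on either strand) occurred in 21 of the 35 promoters matched for this list, or 60%, against 21.1% of the 6022 promoters of tested genes and 13.0% of all 35116 promoters of the table. The letters CCAAT, on either strand, occurred in 18 of the 35, or 51.4%, against 37.6% and 34.6%. Of the 7 genes of this list that rose, 5 had a matched promoter, 2 with E2F-type letters and 4 with CCAAT. Over all tested genes with a promoter, the median log2 difference was 0.10 in the 1270 with E2F-type letters and 0.047 in the 4752 without. A match is a run of letters and not a measured binding site, and whether these letters bear on the differences was not tested.

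The 120 bases before the start of 5 called genes are shown 5′ to 3′ to let these letters be seen, with CCAAT (or ATTGG, its reverse complement) and the E2F-type runs in capitals. In PRIM1 the 2 motifs share letters.
ORC6 (chr16:46689539-46689658, plus strand): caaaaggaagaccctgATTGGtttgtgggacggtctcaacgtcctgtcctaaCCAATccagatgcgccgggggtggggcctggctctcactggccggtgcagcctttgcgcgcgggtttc
POLA2 (chr11:65261842-65261961, plus strand): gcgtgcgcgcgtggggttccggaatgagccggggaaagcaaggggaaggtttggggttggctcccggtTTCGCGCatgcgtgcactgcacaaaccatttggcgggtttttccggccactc
MCM10 (chr10:13161438-13161557, plus strand): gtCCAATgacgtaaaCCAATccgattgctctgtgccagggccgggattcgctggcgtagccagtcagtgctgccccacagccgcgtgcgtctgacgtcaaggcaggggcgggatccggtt
CDC45 (chr22:19479800-19479919, plus strand): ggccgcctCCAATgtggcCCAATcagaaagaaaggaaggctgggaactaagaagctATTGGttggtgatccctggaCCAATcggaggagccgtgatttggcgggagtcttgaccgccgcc
PRIM1 (chr12:56752324-56752443, minus strand): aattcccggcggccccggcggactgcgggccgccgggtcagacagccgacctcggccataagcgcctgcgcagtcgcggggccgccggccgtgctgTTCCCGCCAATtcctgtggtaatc
The CDC45 window holds 4 such runs of CCAAT or ATTGG, those of ORC6 and MCM10 hold 2 each, and that of POLA2 holds TTCGCGC without a CCAAT box.

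Genes of homologous recombination and the Fanconi anaemia pathway, which repair broken and stalled forks, were also higher on balance. Of 40 tested, 35 had a higher mean in 5-FU, 3 rose and 1 fell, against 0.563% and 0.308% of all genes, and the median log2 difference was 0.44. In 20 of the 40 the groups did not overlap with 5-FU higher, against 13.1% of all genes. FANCI, which is ubiquitinated when forks stall, had 54.3, 59.2 and 71.7 FPKM in 5-FU libraries, against 30.8, 36.9 and 33.4 FPKM in control libraries (log2 difference 0.86, SE 0.14, limma adjusted p = 0.0298). BARD1, the partner of BRCA1, had 1.77, 1.58 and 1.92 FPKM in 5-FU libraries, against 0.624, 0.584 and 0.476 FPKM in control libraries (log2 difference 1.09, SE 0.18, limma adjusted p = 0.0293). Both genes were above all controls in every 5-FU library, at levels per length that differ widely from each other. ZGRF1, a helicase of recombination, rose by 1.36 and PIF1, a helicase that works on G-quadruplex DNA and telomeres, fell (log2 difference -1.36, SE 0.21, limma adjusted p = 0.0249), with 0.472, 0.727 and 0.861 FPKM in 5-FU libraries, against 1.93, 2.81 and 2.91 FPKM in control libraries. PIF1 thus went in the opposite direction to the other called members, with no overlap of groups. E2F-type letters were in 17 of the 35 matched promoters of this list, or 48.6%, and CCAAT in 12, or 34.3%.

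Members of this list that did not pass included FANCA, of the Fanconi core complex, at 10.6, 10.4 and 12.8 FPKM in 5-FU libraries, against 5.94, 6.74 and 6.903 FPKM in control libraries (log2 difference 0.74, limma adjusted p = 0.0558). BRCA1 had 19.2, 16.1 and 21.3 FPKM in 5-FU libraries, against 9.98, 12.8 and 13.5 FPKM in control libraries (log2 difference 0.63, limma adjusted p = 0.116). Both were picked after their values were seen, and in neither did a 5-FU library reach down to the highest control.

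Of 55 tested genes of mitosis, the kinetochore and chromosome segregation, 46 had a higher mean in 5-FU, 3 rose and none fell, and the median log2 difference was 0.49. In 24 (43.6%) the groups did not overlap with 5-FU higher, against 13.1% of all genes. SMC4, the core ATPase of condensin, had 31.1, 44.6 and 40.4 FPKM in 5-FU libraries, against 18.9, 19.8 and 17.9 FPKM in control libraries (log2 difference 1.001, SE 0.15, limma adjusted p = 0.0242). NCAPD3, a subunit of condensin II, had 30.7, 30.5 and 33.2 FPKM in 5-FU libraries, against 17.8, 17.2 and 15.8 FPKM in control libraries (log2 difference 0.87, SE 0.13, limma adjusted p = 0.0201). NUF2, which links kinetochores to microtubules, had 5.502, 7.3 and 7.697 FPKM in 5-FU libraries, against 3.29, 3.295 and 2.93 FPKM in control libraries (log2 difference 0.99, SE 0.17, limma adjusted p = 0.0301). The 5-FU values of NCAPD3 lay close together, while SMC4 and NUF2 were lowest in 5-FU replicate 1. The median of this list was 0.38 without 5-FU replicate 3. CCAAT letters were in 30 of its 47 matched promoters, or 63.8%, and E2F-type letters in 15, or 31.9%. Outside the list, VRK1, a kinase of chromatin and nuclear envelope proteins in mitosis, rose (log2 difference 0.75, limma adjusted p = 0.0486), with 7.71, 8.47 and 9.64 FPKM in 5-FU libraries, against 5.201, 4.596 and 4.96 FPKM in control libraries.

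The centrosome and centriole list had 30 tested genes, 24 of them higher on average in 5-FU, with a median of 0.30, and none passed the test in limma, with 6 at an unadjusted p under 0.05. Its most abundant members were PCM1, a scaffold of centriolar satellites, with a log2 difference of 0.29, and TUBGCP2, of the gamma-tubulin complex, with 0.059. Of 20 checkpoint kinases and G1/S cyclins, 14 were higher on average and the median was 0.21, and between 0.135 (without control replicate 3) and 0.354 (without 5-FU replicate 2) with 1 library left out. PKMYT1, the kinase that holds CDK1 inactive before mitosis, was the one that rose, with 6.25, 4.97 and 9.71 FPKM in 5-FU libraries, against 2.56, 1.62 and 1.93 FPKM in control libraries (log2 difference 1.53, SE 0.24, limma adjusted p = 0.0249). Its values were above every control in each 5-FU library and highest in replicate 3. CCNE1, the cyclin of the G1/S step, had 2.33, 2.91 and 3.79 FPKM in 5-FU libraries, against 1.38, 0.504 and 1.09 FPKM in control libraries (log2 difference 1.26, limma adjusted p = 0.0807), and TOPBP1, an activator of the ATR kinase, had 17.6, 21.6 and 20.7 FPKM in 5-FU libraries, against 9.47, 9.64 and 13.8 FPKM in control libraries (log2 difference 0.85, limma adjusted p = 0.0791). Both were chosen after their values were seen, and neither passed.

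Fluoropyrimidine and nucleotide metabolism had 32 tested genes, 21 of them higher on average, with a median of 0.29. That median was 0.11 without 5-FU replicate 3, where the medians of single 5-FU libraries against the control mean were 0.13, 0.19 and 0.52 in replicates 1, 2 and 3. DTYMK, the thymidylate kinase, had 7.36, 5.88 and 7.07 FPKM in 5-FU libraries, against 3.39, 2.98 and 2.88 FPKM in control libraries (log2 difference 1.02, SE 0.16, limma adjusted p = 0.0249). RRM2B, the ribonucleotide reductase subunit that p53 induces, had 2.82, 3.62 and 3.78 FPKM in 5-FU libraries, against 1.02, 1.35 and 1.08 FPKM in control libraries (log2 difference 1.24, SE 0.23, limma adjusted p = 0.0446). Every 5-FU library of both genes was above every control library. TYMS, thymidylate synthase and the enzyme that 5-FU blocks, had 7.47, 5.697 and 6.41 FPKM in 5-FU libraries, against 3.36, 3.87 and 2.92 FPKM in control libraries and did not pass (log2 difference 0.86, limma adjusted p = 0.0779). RRM2, the main small subunit of ribonucleotide reductase, had 40.1, 32.3 and 30.3 FPKM in 5-FU libraries, against 24.2, 21.7 and 17.4 FPKM in control libraries (log2 difference 0.69, limma adjusted p = 0.131). IMPDH2, the enzyme that commits purines to guanine nucleotides, had 22.2, 6.802 and 29.9 FPKM in 5-FU libraries, against 39.7, 37 and 38.95 FPKM in control libraries (log2 difference -1.19, limma adjusted p = 0.234). TYMS and RRM2 were higher and IMPDH2 lower in each 5-FU library than in any control, and the 5-FU values of IMPDH2 were spread widely, with replicate 2 the lowest. Values of these 3 genes were picked after they were seen.

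Among p53 target genes, 17 of 18 tested had a higher mean in 5-FU and RRM2B was the one that rose. The list median was 0.33, and between 0.183 (without control replicate 3) and 0.423 (without 5-FU replicate 1) with 1 library left out. MDM2, the ubiquitin ligase that limits p53, had 33.9, 33.9 and 57.6 FPKM in 5-FU libraries, against 18.5, 22.4 and 24.2 FPKM in control libraries and missed the threshold (log2 difference 0.89, limma adjusted p = 0.0823). DDB2, a sensor of damaged DNA, had 22.98, 27.1 and 26.1 FPKM in 5-FU libraries, against 18.9, 16.7 and 14.2 FPKM in control libraries (log2 difference 0.61, limma adjusted p = 0.122). Both, singled out after their values were seen, were higher in every 5-FU library than in any control, with MDM2 higher in replicate 3 than in the other 5-FU libraries. Mismatch and base excision repair had 20 tested genes, 15 higher on average, none called by limma, 1 at an unadjusted p under 0.05 and a median of 0.15, which was 0.076 without control replicate 1 and 0.236 without control replicate 3. PARP1, the sensor of DNA breaks, had a log2 difference of 0.43.

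**Figure D3:**
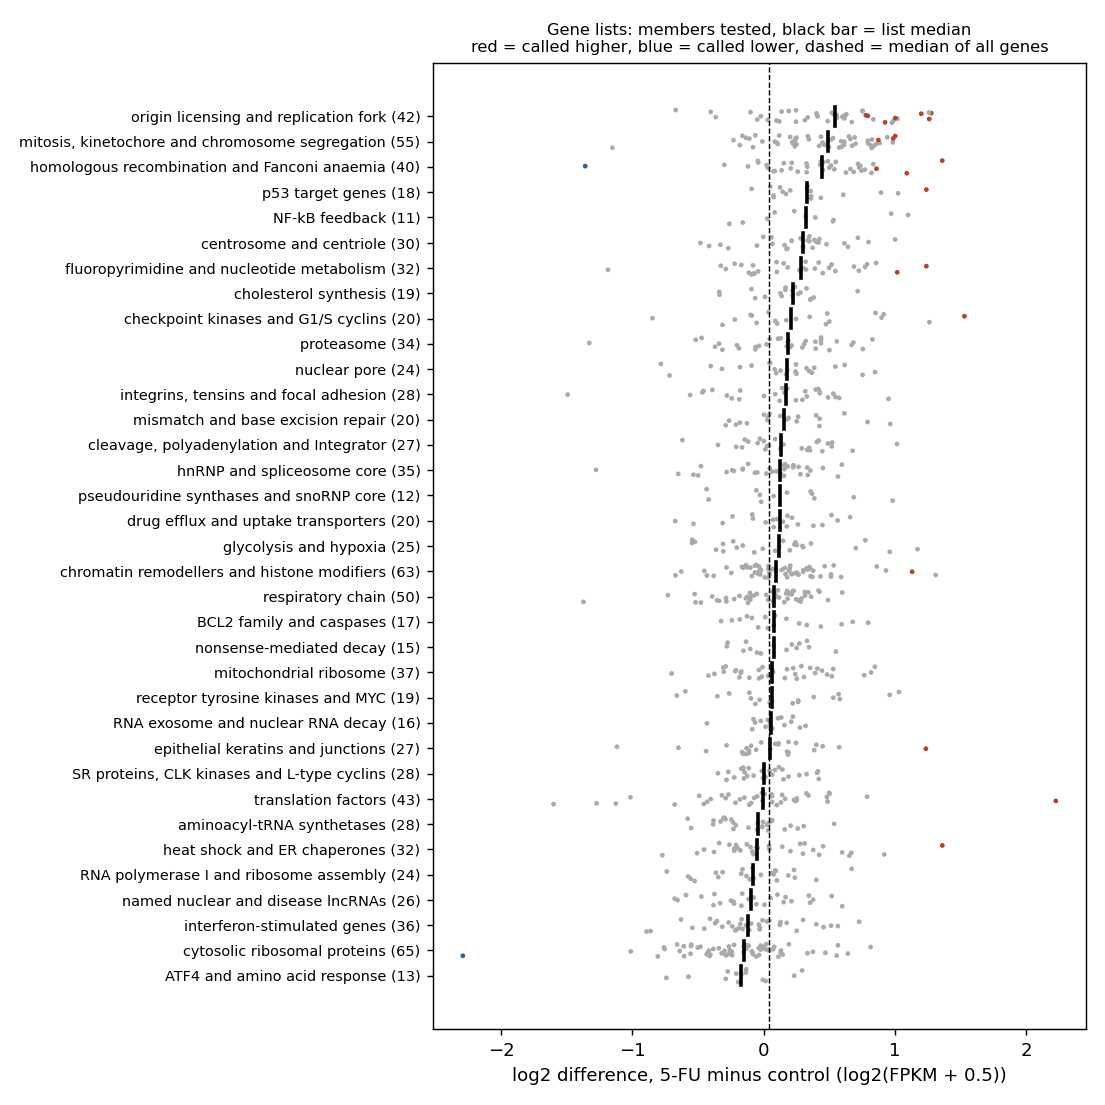
Each row is a gene list with its number of tested members, each point a member's log2 difference, 5-FU minus control, and each black bar the list median, with called members in red (higher) and blue (lower). Rows run from the replication list at 0.54 to the ATF4 list at -0.17, and the dashed line marks the median of all genes, 0.036.

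Chromatin remodellers and histone modifiers had 63 tested genes, 39 higher on average, with a median of 0.092 that was 0.048 without 5-FU replicate 3 and 0.161 without control replicate 3. HELLS, a remodelling ATPase needed for DNA methylation, had 28.7, 24.8 and 18.99 FPKM in 5-FU libraries, against 11.3, 11.03 and 9.61 FPKM in control libraries (log2 difference 1.13, SE 0.18, limma adjusted p = 0.0285). It was higher in every 5-FU library, most of all in replicate 1. No member passed in 3 lists of RNA processing: hnRNP and spliceosome core (35 tested, median 0.13), cleavage, polyadenylation and Integrator (27 tested, median 0.13) and nonsense-mediated decay (15 tested, median 0.075). In limma these lists had 6, 4 and 0 members at an unadjusted p under 0.05. The median of the first was 0.057 without 5-FU replicate 3, and that of the last -0.006 without control replicate 3 and 0.199 without control replicate 1. HNRNPA1, a splicing regulator, had 60.8, 48.7 and 57.5 FPKM in 5-FU libraries, against 85.4, 74.8 and 81.7 FPKM in control libraries (log2 difference -0.54, limma adjusted p = 0.145), with each 5-FU library below each control. SR proteins, CLK kinases and L-type cyclins stood at a median of 0.0040 (28 tested, 1 at an unadjusted p under 0.05), which turned to -0.05 without control replicate 1, and CCNL1, an L-type cyclin of splicing, had a log2 difference of -0.28 (adjusted p = 0.337, limma).

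The RNA exosome and pseudouridine synthases, on which 5-FU is known to act, held no called gene in limma. In the list of the exosome and nuclear RNA decay, 16 genes were tested, 11 were higher on average, the median was 0.056 (0.108 without control replicate 3) and none had an unadjusted p under 0.05. EXOSC10, the nuclear exonuclease of the exosome, had 9.55, 7.22 and 6.74 FPKM in 5-FU libraries, against 7.07, 7.37 and 8.68 FPKM in control libraries (log2 difference 0.013, limma adjusted p = 0.979), and the groups overlapped. Log2 differences of the other members ran from -0.43 in EXOSC7 to 0.32 in EXOSC2, and the groups overlapped in all but EXOSC1, a cap subunit, at 0.28. Of 12 pseudouridine synthases and snoRNP core genes, 7 were higher on average and the median was 0.13 (0.265 without control replicate 1 and 0.076 without control replicate 3), with 2 members at an unadjusted p under 0.05. These were GAR1, of the box H/ACA particle, with 6.72, 6.19 and 5.81 FPKM in 5-FU libraries, against 8.59, 8.62 and 8.297 FPKM in control libraries (log2 difference -0.42, limma adjusted p = 0.196), and RPUSD4, a mitochondrial synthase, with 5.53, 4.54 and 6.25 FPKM in 5-FU libraries, against 7.47, 7.499 and 7.47 FPKM in control libraries (log2 difference -0.44, limma adjusted p = 0.227). In both, every 5-FU library lay below every control. PUSL1, a pseudouridine synthase-like protein, was apart in the other direction, with 5.15, 5.42 and 4.39 FPKM in 5-FU libraries, against 3.76, 3.81 and 3.73 FPKM in control libraries (log2 difference 0.36, limma adjusted p = 0.336). DKC1, the catalytic subunit of the H/ACA particle, had a log2 difference of -0.019 and PUS1, a nuclear and mitochondrial synthase, of -0.030, with overlapping groups. FBL, the methyltransferase of box C/D particles, had the highest difference of the list at 0.98, with control values from 0.300 to 4.84 FPKM and overlapping groups. Groups also overlapped in the remaining 6 members, with log2 differences of 0.69 in NHP2, 0.39 in NAF1, 0.37 in PUS10, 0.18 in PUS7, 0.075 in NOP58 and -0.056 in RPUSD3.

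Cytosolic ribosomal protein genes were lower on balance: 45 of 65 tested had a lower mean in 5-FU, against 4306 of all 9410 genes, and the median was -0.15. Among them 1 fell and none rose, against 0.308% and 0.563% of all genes. In 8 (12.3%) the groups did not overlap with 5-FU lower, close to the 9.55% of all genes tested. The medians of single 5-FU libraries against the control mean were -0.19, -0.20 and -0.0030, so replicate 3 hardly showed the shift. RPL14, of the large subunit, had 27.2, 15.3 and 25.02 FPKM in 5-FU libraries, against 122, 104 and 102 FPKM in control libraries (log2 difference -2.29, SE 0.43, limma adjusted p = 0.0402), and each control was several times higher than each 5-FU library. A single retained-intron transcript made up 89.9% of its FPKM, at 21.03, 9.29 and 16.7 FPKM in 5-FU libraries, against 116, 97.2 and 95.3 FPKM in control libraries. RPL37A had 6.28, 5.47 and 4.698 FPKM in 5-FU libraries, against 15.6, 9.02 and 10.8 FPKM in control libraries (log2 difference -1.01, limma adjusted p = 0.0555) and RPS24 63.4, 80.7 and 71.8 FPKM in 5-FU libraries, against 95.7, 116 and 90.5 FPKM in control libraries (log2 difference -0.48, limma adjusted p = 0.166), both chosen after their values were seen and both lower in every 5-FU library. RNA polymerase I and ribosome assembly had 24 tested genes, 14 of them lower on average, a median of -0.081 (-0.137 without control replicate 1 and -0.05 without 5-FU replicate 1), 2 at an unadjusted p under 0.05 and none called by limma. NPM1, a nucleolar chaperone of ribosome assembly, had 115, 132 and 115 FPKM in 5-FU libraries, against 146, 143 and 172 FPKM in control libraries (log2 difference -0.35, limma adjusted p = 0.246), without overlap. In translation factors (43 tested, median -0.0075, and 0.052 without control replicate 3), EIF2S1, the alpha subunit of the factor that brings the first tRNA, rose, with 10.3, 19.9 and 6.05 FPKM in 5-FU libraries, against 1.63, 1.96 and 2.18 FPKM in control libraries (log2 difference 2.22, SE 0.36, limma adjusted p = 0.0285). Its 5-FU values ranged more than 3-fold, and its leading retained-intron transcript had 9.75, 19.1 and 2.29 FPKM in 5-FU libraries, against 1.01, 1.24 and 1.62 FPKM in control libraries.

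Lists of stress and signalling gave few calls. NF-kB feedback genes had 9 of 11 tested higher on average and a median of 0.32 (0.206 without 5-FU replicate 1), with none called by limma and 4 at an unadjusted p under 0.05. RELB, an NF-kB subunit of the slower pathway, had 1.69, 1.49 and 1.75 FPKM in 5-FU libraries, against 0.404, 1.18 and 0.154 FPKM in control libraries (log2 difference 1.10, limma adjusted p = 0.138), and NFKBIA, the inhibitor of NF-kB, had 5.44, 5.28 and 4.26 FPKM in 5-FU libraries, against 3.69, 3.53 and 2.701 FPKM in control libraries (log2 difference 0.53, limma adjusted p = 0.172). Both were chosen after their values were seen, and neither group pair overlapped. Genes of the ATF4 and amino acid response had 10 of 13 lower on average and a median of -0.17 (-0.062 without control replicate 3), and none was called by limma, with 1 at an unadjusted p under 0.05. That one was PHGDH, the first enzyme of serine synthesis, with 30.4, 28.1 and 33.8 FPKM in 5-FU libraries, against 47.8, 47.2 and 42.9 FPKM in control libraries (log2 difference -0.57, limma adjusted p = 0.119). Aminoacyl-tRNA synthetases had a median of -0.047 (28 tested), which was -0.134 without control replicate 2 and -0.029 without control replicate 3, with no groups apart in either direction. Interferon-stimulated genes had one of -0.12 (36 tested, 24 lower on average), which was -0.013 without 5-FU replicate 1. In that last list no gene was called by limma, and 7 had an unadjusted p under 0.05.

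Within heat shock and ER chaperones (32 tested, median -0.051, and 0.108 without 5-FU replicate 2), MOGS, the glucosidase that starts N-glycan trimming, rose with 9.73, 13.6 and 9.76 FPKM in 5-FU libraries, against 3.86, 2.64 and 5.89 FPKM in control libraries (log2 difference 1.36, limma adjusted p = 0.0469). In epithelial keratins and junctions (27 tested, median 0.050, and -0.069 without 5-FU replicate 3), KRT17, a keratin of stressed and basal epithelium, passed the test (limma adjusted p = 0.0249) with 1.005, 0.521 and 0.88 FPKM in 5-FU libraries, against 0, 0.0477 and 0.09396 FPKM in control libraries. KRT17 was low, was listed at 0 in control replicate 1 and reached 0.5 FPKM in the 5-FU libraries alone, so it was tested only through the group where it is high. KRT8, a keratin of simple epithelium, had 110.3, 81.9 and 118 FPKM in 5-FU libraries, against 260.4, 261 and 161 FPKM in control libraries and did not pass (log2 difference -1.12, limma adjusted p = 0.111), and its groups did not overlap. Over the gastric line markers (9 tested), 7 were lower on average, with a median of -0.13 (-0.253 without 5-FU replicate 3 and -0.059 without control replicate 3) and none called by limma (3 at an unadjusted p under 0.05), and whether this bears on the other results was not tested.

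The remaining lists held no called gene in limma, with at most 7 genes each at an unadjusted p under 0.05. Their medians were 0.22 for cholesterol synthesis, 0.18 for the proteasome, 0.17 for the nuclear pore, 0.17 for integrins, tensins and focal adhesion, and 0.12 for drug transporters. They were 0.12 for glycolysis and hypoxia, 0.077 for the respiratory chain, 0.075 for the BCL2 family and caspases, 0.065 for the mitochondrial ribosome, 0.063 for receptor tyrosine kinases and MYC, and -0.096 for well-known nuclear and disease lncRNAs. Several of these medians rest on single libraries. Without 5-FU replicate 3 they were 0.121 for cholesterol synthesis, 0.069 for the proteasome, 0.093 for the nuclear pore and 0.028 for the mitochondrial ribosome. Those of glycolysis and of the BCL2 family turned to -0.036 without control replicate 3 and to -0.006 without 5-FU replicate 1. The respiratory chain was at 0.006 and disease lncRNAs at -0.026 without control replicate 2, drug transporters at 0.077 without 5-FU replicate 2, and receptor kinases at 0.245 without 5-FU replicate 1. ABCC3, a drug efflux pump, had 38.7, 41.7 and 51.3 FPKM in 5-FU libraries, against 61.6, 76.7 and 72.2 FPKM in control libraries (log2 difference -0.67, limma adjusted p = 0.0678), and every 5-FU library was lower than every control. NUP210, a membrane protein of the nuclear pore, had 21.2, 36.7 and 18.5 FPKM in 5-FU libraries, against 13.2, 14.8 and 12.1 FPKM in control libraries (log2 difference 0.85, limma adjusted p = 0.157), again without overlap but higher. TNS4, the tensin of the series title, had 4.68, 7.02 and 4.96 FPKM in 5-FU libraries, against 3.36, 2.66 and 6.85 FPKM in control libraries. Its groups overlapped and it did not pass (log2 difference 0.42, SE 0.30, limma adjusted p = 0.535).

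Several called genes belonged to none of the lists. BTD, the gene of biotinidase, had the highest mean in 5-FU and the largest difference among called genes, at 392 ± 68.3 FPKM in 5-FU libraries, against 67.1 ± 15.2 FPKM in control libraries (SD, n = 3 each; log2 difference 2.55, SE 0.25, limma adjusted p = 0.00921). Nearly all of its listed FPKM came from transcripts assembled from the reads and named as antisense to it, and the larger one (chromosome 3, 15657907 to 15738746) had 407, 427 and 304 FPKM in 5-FU libraries, against 2.04, 0 and 0.328 FPKM in control libraries. The other (chromosome 3, 15721609 to 15738809) had 13.9, 14.3 and 10.1 FPKM in 5-FU libraries, against 73.9, 49.5 and 75.5 FPKM in control libraries. The 2 transcripts overlap on the genome and went in opposite directions, so the BTD value is not one of the gene's mRNA. Assembled intronic transcripts also made up the whole value of AKAP12, a scaffold of protein kinase A, at 1.79, 1.66 and 2.56 FPKM in 5-FU libraries, against 0.5305, 0.581 and 0.504 FPKM in control libraries (log2 difference 1.25, limma adjusted p = 0.0474). The same held for PSMA8, a proteasome subunit best known from testis, at 8.35, 6.69 and 7.901 FPKM in 5-FU libraries, against 3.34, 2.65 and 3.11 FPKM in control libraries (log2 difference 1.21, limma adjusted p = 0.0187). In both genes every 5-FU library was above every control.

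USP13, a deubiquitinase, had 2.15, 2.99 and 4.103 FPKM in 5-FU libraries, against 0.791, 0.931 and 1.14 FPKM in control libraries (log2 difference 1.27, limma adjusted p = 0.0469), and NTAN1, an amidase of the N-degron pathway, had 4.51, 3.47 and 4.4 FPKM in 5-FU libraries, against 2.096, 1.69 and 1.73 FPKM in control libraries (log2 difference 0.98, limma adjusted p = 0.0327). SCG5, the chaperone 7B2 of a prohormone convertase, had 1.84, 1.41 and 1.87 FPKM in 5-FU libraries, against 0.188, 0.291 and 0.0366 FPKM in control libraries (log2 difference 1.73, limma adjusted p = 0.0201). KIF1A, a kinesin of axonal transport, had 6.17, 6.75 and 5.65 FPKM in 5-FU libraries, against 2.62, 1.99 and 2.696 FPKM in control libraries (log2 difference 1.19, limma adjusted p = 0.0238), and B4GALNT1, the ganglioside GM2 synthase, had 2.25, 2.46 and 2.36 FPKM in 5-FU libraries, against 0.482, 0.868 and 1.02 FPKM in control libraries (log2 difference 1.17, limma adjusted p = 0.0324). None of these 5 genes had overlapping groups, and SCG5 reached 0.5 FPKM in the 5-FU libraries alone. Also higher were MAP4K4, a kinase upstream of JNK (1.20), GOT2, the mitochondrial aspartate aminotransferase (1.15), RELT, a TNF receptor family member (1.10), NARF, a binder of prelamin A (1.09), and PADI1, a peptidylarginine deiminase (0.95). Those that are not among the 10 with the highest log2 difference were named after their values were seen, as were the neighbours described next.

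At chromosome 22, CLTCL1 (19179476 to 19291661), UFD1 (19450621 to 19479187) and CDC45 (19479738 to 19520594) all rose and are neighbours among the called genes, with 158959 bases between CLTCL1 and UFD1 and 550 between UFD1 and CDC45. UFD1, a cofactor of the p97 segregase that also unloads the replicative helicase, had 9.75, 9.83 and 9.72 FPKM in 5-FU libraries, against 5.55, 4.95 and 4.69 FPKM in control libraries (log2 difference 0.89, SE 0.15, limma adjusted p = 0.0293). CDC45 had 7.404, 8.07 and 8.93 FPKM in 5-FU libraries, against 4.01, 4.16 and 3.95 FPKM in control libraries (log2 difference 0.92, SE 0.14, limma adjusted p = 0.0249). CLTCL1, a clathrin heavy chain, was low and reached 0.5 FPKM in the 5-FU libraries alone, with 0.759, 1.21 and 1.07 FPKM in 5-FU libraries, against 0.172, 0.0433 and 0.2396 FPKM in control libraries (log2 difference 1.22, limma adjusted p = 0.0293). All 3 were higher in every 5-FU library than in any control.

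Protein-coding genes that fell, besides RPL14 and PIF1, were GSTZ1, GTDC1, AGBL1 and, by its V29 class, LINC03040. GSTZ1, the isomerase of tyrosine breakdown, had 1.21, 1.31 and 1.504 FPKM in 5-FU libraries, against 3.25, 2.899 and 3.31 FPKM in control libraries (log2 difference -0.99, SE 0.18, limma adjusted p = 0.0357). GTDC1, a putative glycosyltransferase, had 0.486, 0.3995 and 0.366 FPKM in 5-FU libraries, against 1.97, 1.41 and 1.55 FPKM in control libraries (log2 difference -1.22, limma adjusted p = 0.0469). AGBL1, a metallocarboxypeptidase related to the tubulin deglutamylases, had 0.00405, 0.0156 and 0.126 FPKM in 5-FU libraries, against 1.04, 1.46 and 1.78 FPKM in control libraries (log2 difference -1.80, limma adjusted p = 0.0187). GTDC1 and AGBL1 reached 0.5 FPKM in the controls alone, and AGBL1 was near 0 in every 5-FU library.

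By class of gene name, the balance differed between coding symbols and most lncRNA names. Protein-coding symbols (6438 tested) were higher on average in 3859, with a median of 0.083 (0.041 without 5-FU replicate 3). Of them 36 rose and 5 fell, against 53 and 29 of all 9410 genes tested. Divergent -DT genes (180 tested) were lower in 132, with a median of -0.24. Antisense -AS genes (399 tested) were lower in 276, with a median of -0.18. In 51 of the 180 -DT genes (28.3%) and 99 of the 399 -AS genes (24.8%) the groups did not overlap with 5-FU lower, against the 9.55% of all genes tested. Both medians kept their sign with 1 library left out, between -0.242 and -0.205 for -DT and between -0.199 and -0.154 for -AS, and with median-of-ratios scaling they were -0.28 and -0.22. With no filter on low values they were -0.077 and -0.05.

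Host genes of small nucleolar RNAs (SNHG, 25 tested) were lower in 15, with a median of -0.17 that was -0.0040 without control replicate 3. In 8 of the 25 (32%) the groups did not overlap with 5-FU lower, against 9.55% of all genes tested. Of the 25, 2 fell and none rose, against 0.308% and 0.563% of all genes tested. LINC genes (231 tested) were lower in 137, with a median of -0.074, and microRNA host genes (24 tested) in 17, with a median of -0.15. Genes with no symbol (1778 tested) had a median of -0.037, other lncRNA symbols (135 tested) one of -0.066, intronic and overlapping -IT and -OT genes (53 tested) one of 0.028, other symbols (96 tested) one of -0.015 and loci assembled from the reads (51 tested) one of -0.023. With 1 library left out the last 3 changed sign, to -0.031 without control replicate 2, and to 0.007 and 0.069 without 5-FU replicate 1. Genes with no symbol were at -0.014 without 5-FU replicate 1, and other lncRNA symbols at -0.13 without control replicate 1.

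**Figure D4:**
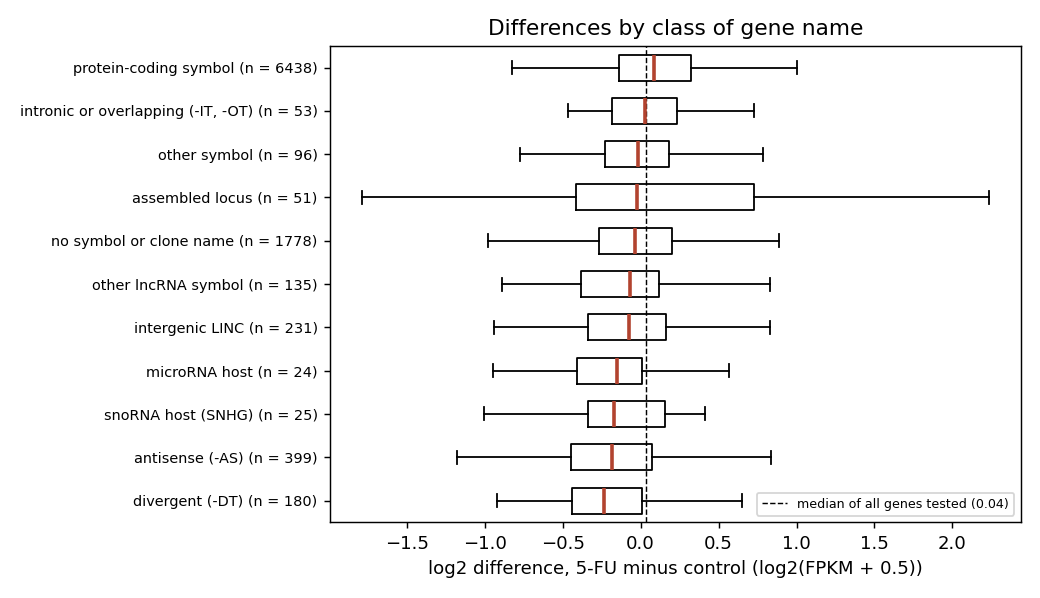
Box plots of the log2 difference, 5-FU minus control, by class of gene name, with the red line at the median, the box from the lower to the upper quartile and whiskers to the most extreme gene within 1.5 box lengths. The class medians run from 0.083 for protein-coding symbols to -0.24 for -DT genes, and the dashed line is the median of all genes tested.

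The summed FPKM of a class is a single value per library, and an exact two-sided permutation test of 3 against 3 libraries cannot go below p = 0.1. The -AS sum was 1053, 1086 and 1101 FPKM in 5-FU libraries, against 1208, 1227 and 1329 FPKM in control libraries. The -DT sum was 395, 400.2 and 403 FPKM in 5-FU libraries, against 451, 478 and 494 FPKM in control libraries. The SNHG sum was 734, 706 and 738 FPKM in 5-FU libraries, against 861, 829.7 and 863 FPKM in control libraries. All 3 sums were lower in every 5-FU library (exact permutation p = 0.1 each, 0.275 after Benjamini-Hochberg adjustment over 11 classes), at 0.861, 0.842 and 0.853 of the control mean. The -IT and -OT sum had the same p and was 1.11 times the control mean, and the other classes had p between 0.2 and 0.7.

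A -DT or -AS gene can be set beside the coding gene it is named after, although reads where a pair overlaps may be counted to either. For 102 -DT genes whose partner was also tested, the lncRNA was lower in 78 and the partner in 34, with medians of -0.27 for the lncRNAs and 0.14 for the partners. In 50 of the pairs the lncRNA was lower and its partner higher, in 28 both were lower, in 18 both were higher and in 6 only the lncRNA was higher. For 171 -AS pairs, the lncRNA was lower in 120 and the partner in 70, with medians of -0.23 and 0.038. In 73 the lncRNA was lower and its partner higher, in 47 both were lower, in 28 both were higher and in 23 only the lncRNA was higher. Whether opposite directions within pairs exceed what the separate counts of lncRNAs and partners would give was not tested. Across pairs, which are not independent replicates and share their libraries, the 2 differences had Pearson's r of 0.18 for -DT and -0.0078 for -AS genes.

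Among divergent genes, PPP1CB-DT fell. PPP1CB-DT (chromosome 2, 28707511 to 28751722) had 0.854, 0.6297 and 0.91 FPKM in 5-FU libraries, against 2.03, 2.87 and 2.48 FPKM in control libraries (log2 difference -1.19, SE 0.20, limma adjusted p = 0.0301). Every 5-FU library was below every control. Its partner PPP1CB, a catalytic subunit of protein phosphatase, was not called, at 0.13. The most abundant -DT gene, GARS1-DT, went the other way without passing, with 29.1, 27.7 and 33.3 FPKM in 5-FU libraries, against 20.7, 21.9 and 20.5 FPKM in control libraries (log2 difference 0.50, limma adjusted p = 0.122).

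Antisense genes that fell included H1-10-AS1, ST7-AS1, ADAMTSL4-AS1, ADAMTSL4-AS2, BCAN-AS1 and HEXIM2-AS1. H1-10-AS1, named after a linker histone gene (chromosome 3, 129315392 to 129326225), had 1.57, 1.14 and 1.07 FPKM in 5-FU libraries, against 4.42, 5.84 and 4.25 FPKM in control libraries (log2 difference -1.60, SE 0.20, limma adjusted p = 0.0187). The groups lay clear of each other. BCAN-AS1, at 3.32, 3.04 and 3.302 FPKM in 5-FU libraries, against 7.02, 7.69 and 8.14 FPKM in control libraries (log2 difference -1.12, limma adjusted p = 0.0187), and HEXIM2-AS1, at 2.5, 1.65 and 2.67 FPKM in 5-FU libraries, against 5.29, 4.72 and 6.05 FPKM in control libraries (log2 difference -1.09, limma adjusted p = 0.0301), also fell. ADAMTSL4-AS1 had 1.58, 1.41 and 1.29 FPKM in 5-FU libraries, against 3.83, 3.45 and 4.105 FPKM in control libraries (log2 difference -1.16, limma adjusted p = 0.0201). ADAMTSL4-AS2, on chromosome 1 with 2477 bases between them, had 0.469, 0.457 and 0.488 FPKM in 5-FU libraries, against 1.69, 1.56 and 1.84 FPKM in control libraries (log2 difference -1.18, limma adjusted p = 0.0249) and reached 0.5 FPKM in the controls alone. ST7-AS1 fell by 1.35 on the log2 scale, with ST7 at 0.072.

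One antisense gene passed in the other direction. GBX2-AS1, named after a homeobox gene (chromosome 2, 236167418 to 236294927), was listed at 2.21, 1.02 and 1.498 FPKM in 5-FU libraries, against 0, 0.0894 and 0.328 FPKM in control libraries (limma adjusted p = 0.0247). It was listed at 0 in control replicate 1 and was above 1 FPKM in each 5-FU library. GBX2-AS1 thus reached 0.5 FPKM in the 5-FU libraries alone and was tested only through the group where it is high. NARF-AS2 lies under the same name as NARF, which rose, and had a log2 difference of -1.24 without passing.

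**Figure D5:**
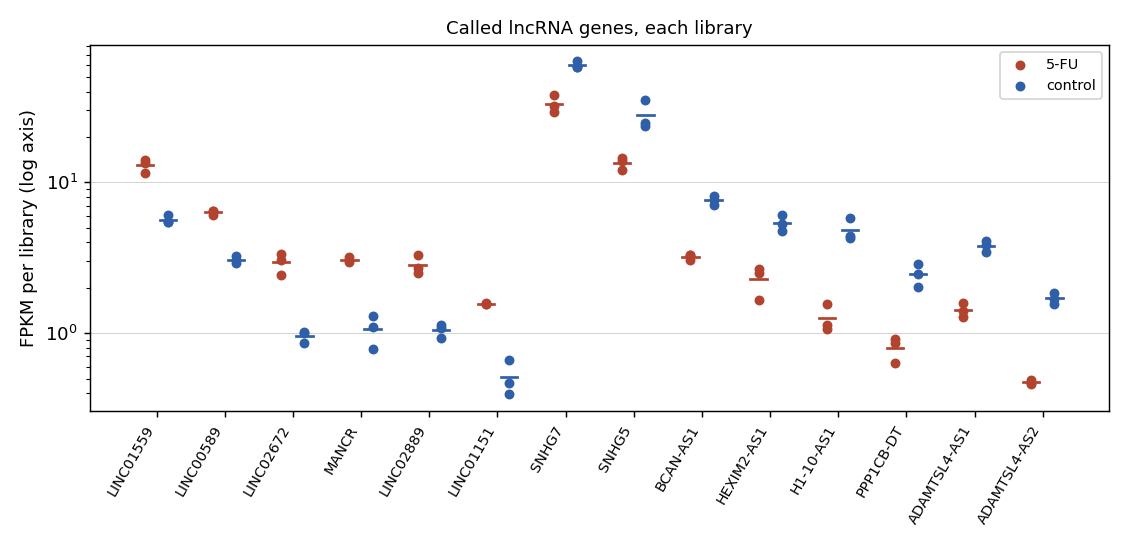
FPKM of 14 called lncRNA genes on a log axis, each point a library and each bar a group mean (n = 3), with 5-FU left of control. The 6 genes at the left are higher in all 3 5-FU libraries and the 8 at the right are lower in all 3.

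Of the 231 LINC genes tested, 6 rose and 3 fell, against 0.563% and 0.308% of all genes. LINC01559 (chromosome 12, 13371089 to 13387167) was the most abundant of them, with 13.5, 11.5 and 14.1 FPKM in 5-FU libraries, against 6.06, 5.43 and 5.44 FPKM in control libraries (log2 difference 1.14, SE 0.14, limma adjusted p = 0.0187). LINC02672 (chromosome 10, 52972612 to 53030024) had 3.33, 3.07 and 2.44 FPKM in 5-FU libraries, against 0.865, 1.02 and 0.997 FPKM in control libraries (log2 difference 1.23, SE 0.20, limma adjusted p = 0.0249). LINC02889 (chromosome 7, 17405479 to 17558909) had 2.52, 2.71 and 3.302 FPKM in 5-FU libraries, against 1.09, 1.13 and 0.932 FPKM in control libraries (log2 difference 1.10, limma adjusted p = 0.0337). The groups were well apart in all 3. LINC02178, at 2.51, 1.498 and 1.61 FPKM in 5-FU libraries, against 0.371, 0.188 and 0.438 FPKM in control libraries (log2 difference 1.499, limma adjusted p = 0.0327), reached 0.5 FPKM in the 5-FU libraries alone. LINC00589 and LINC01151 rose by 0.94 and 1.04 on the log2 scale, and both lie on chromosome 8.

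MANCR, an lncRNA described in dividing breast cancer cells, had 2.98, 3.198 and 3.04 FPKM in 5-FU libraries, against 1.096, 1.301 and 0.785 FPKM in control libraries (log2 difference 1.21, SE 0.22, limma adjusted p = 0.0337). It was near 3 FPKM in every 5-FU library and near 1 FPKM in the controls. LINC03040, LINC00886 and LINC01389 fell. LINC03040, which V29 holds as protein-coding and whose leading transcript carries that class, had 3.66, 3.78 and 3.84 FPKM in 5-FU libraries, against 13.3, 7.93 and 8.36 FPKM in control libraries (log2 difference -1.25, SE 0.22, limma adjusted p = 0.0301). LINC00886 had 0.436, 0.862 and 0.744 FPKM in 5-FU libraries, against 2.003, 2.59 and 2.702 FPKM in control libraries (log2 difference -1.32, limma adjusted p = 0.0315) and LINC01389 0.175, 0.562 and 0.429 FPKM in 5-FU libraries, against 1.67, 1.497 and 1.42 FPKM in control libraries (log2 difference -1.21, limma adjusted p = 0.0491). All 3 were below every control in each 5-FU library, and control replicate 1 of LINC03040 was higher than the other controls.

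SNHG5 and SNHG7 were the snoRNA host genes that fell. SNHG7 (chromosome 9, 136721366 to 136728184) had 38.2, 29.3 and 31.9 FPKM in 5-FU libraries, against 58.6, 63.5 and 58.6 FPKM in control libraries (log2 difference -0.86, SE 0.13, limma adjusted p = 0.0249). SNHG5 (chromosome 6, 85650491 to 85678932) had 12.04, 14.5 and 13.8 FPKM in 5-FU libraries, against 35.3, 24.6 and 23.6 FPKM in control libraries (log2 difference -1.003, SE 0.19, limma adjusted p = 0.0435), with control replicate 1 above the other controls. Its leading transcript had 0.697, 0.416 and 0.46 FPKM in 5-FU libraries, against 20.6, 5.67 and 0 FPKM in control libraries, so the controls differed in which transcripts were listed. SNHG29 and GAS5, the most abundant of the class, did not pass. SNHG29 had 183, 179 and 158 FPKM in 5-FU libraries, against 245, 251 and 249.8 FPKM in control libraries (log2 difference -0.52, limma adjusted p = 0.0811), and GAS5 102, 103 and 100.3 FPKM in 5-FU libraries, against 113, 119 and 127 FPKM in control libraries (log2 difference -0.23, limma adjusted p = 0.345), each lower in every 5-FU library than in any control.

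Host genes of small nucleolar RNAs and ribosomal protein genes are known as carriers of a 5′ terminal pyrimidine tract, a run of C and T at the start of the RNA. A run of at least 6 C or T within 5 bases before to 20 after the RefSeq start was found in 42 of 52 matched ribosomal protein promoters, or 80.8%, and in 13 of 21 matched SNHG promoters, or 61.9%. The share was 21.6% over tested genes and 23.3% over all promoters. Over tested genes, the median log2 difference was 0.0094 in the 1300 with such a run and 0.069 in the 4722 without. The 25 bases around the start of 3 genes that fell, and of GAS5 beside them, are given 5′ to 3′ with the longest run of C and T in capitals.
SNHG5 (chr6:85678714-85678738, minus strand): tcggTCTTTTacgtcggccttcgcg
SNHG7 (chr9:136728165-136728189, minus strand): tcgTCCTCTgcgtgcgccggaggct
RPL14 (chr3:40457334-40457358, plus strand): TCTTCCTTCTCgcctaacgccgcca
GAS5 (chr1:173869026-173869050, minus strand): aattcagatgtgtttaTTTTggagc
The run is 11 bases long in RPL14, 6 in SNHG5 and SNHG7 and 4 in this window of GAS5. The GAS5 window lies outside the span of its listed transcripts (173858559 to 173868882). Its 2 leading transcripts reach only to 173867995 and 173867815 on that side. The window therefore cannot show whether the measured GAS5 RNA starts with such a tract, and GAS5 is not a contrast to the genes that fell.

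MALAT1, a nuclear lncRNA of speckles, had a log2 difference of 0.17 and NEAT1, which builds paraspeckles, one of -0.48, both with overlapping groups and neither called. MIR4435-2HG and MIR924HG, the most abundant microRNA hosts, were at 0.30 and 0.57, and MUC20-OT1, the most abundant overlapping gene, at 0.23. Of 1778 tested genes without a symbol, 6 rose and 9 fell, against 0.563% and 0.308% of all genes tested. Of 51 tested loci assembled from the reads, 3 rose and 1 fell. Of these, XLOC_061514 lies on the unplaced contig KI270544.1 and had 67.7, 86.98 and 94.6 FPKM in 5-FU libraries, against 41.9, 46.3 and 49.4 FPKM in control libraries (log2 difference 0.84, limma adjusted p = 0.0362), and XLOC_023410 (chromosome 16, 34592579 to 34593713) had 2.03, 2.39 and 1.75 FPKM in 5-FU libraries, against 5.41, 7.54 and 8.44 FPKM in control libraries (log2 difference -1.56, limma adjusted p = 0.0201). XLOC_061484, with XLOC_061514 the most abundant of these loci, was not called (log2 difference 0.45, limma adjusted p = 0.1304). The groups did not overlap in any of these 3 loci, of which XLOC_023410 was named after its values were seen.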

How the data were processed

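RNA of SNU16 cells was sequenced in 9 libraries, 3 per group; libraries were made with a strand-marking kit, per the labels' protocols. The authors deposited FPKM per transcript. HISAT2 2.0.5, StringTie, edgeR 3.22.5 and GRCh38 are named with no role stated, per the submitters' processing notes. The sources used here give no StringTie version, annotation release or use of strand, so antisense and overlapping genes are uncertain. FPKM were summed per gene without rescaling, and genes with at least 0.5 FPKM in 3 of the 6 libraries were kept. Log2(FPKM + 0.5) was tested with limma 3.58.1 (R 4.3.3) in 1 fit of all 9 libraries, with a mean-variance trend, two-sided, Benjamini-Hochberg adjustment over 9410 genes and a threshold of 0.05. Log2 differences are on that scale, which understates changes of low genes. Class sums were compared by exact permutation tests. When 200 of 9410 genes were changed in simulated libraries of like spread, 41% were recovered at a log2 change of 1 and 85% at 2.

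The members, the 37 gene lists, the 11 name classes and the rule for named genes were chosen with earlier results of these data known. By that rule, the text names the called genes with the largest differences (10 in each direction at a higher-group mean of 2 FPKM or more, and 6 lncRNA genes in each direction at 1 FPKM or more), 4 or fewer called genes per list or else its 2 most abundant, the 2 most abundant of each name class, all exosome and pseudouridine synthase genes, and TNS4; some genes under this rule are not reported here. Lists are described by counts and medians beside those of all genes. Coordinates come from the deposited table (GRCh38), promoters those of RefSeq (GRCh38.p14). Alternatives were the pseudocount, filters, libraries in the fit, scaling, weights, trend, transcripts kept and each library left out.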

Additional observations from a re-analysis of the deposited data

How the results depend on the processing

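All 82 called genes kept their direction wherever they could be fitted, which most alternatives could not have changed, since the groups of these genes did not overlap. The number of calls moved. It was 49 (35 higher, 14 lower), 39 of them among the 82, with no filter on low values, 21 (10 higher, 11 lower), 15 of them among the 82, with the 6 libraries alone in the fit, and 113 with array weights, 45 of them lower. With 1 of the 9 libraries left out it was 0 to 92 (higher 0 to 58, lower 0 to 34), and 3 (2 higher, 1 lower) without replicate 3 of both 5-FU and H2O2, an alternative added after the data were seen. With replicate number as a block, limma called 0 genes, 0 higher and 0 lower, with 1473 at an unadjusted p under 0.05 and a smallest adjusted p of 0.0619. Same-numbered 5-FU and control libraries deviated with correlations of 0.006, -0.038 and 0.031, and differently numbered ones with -0.052 to 0.046. The labels do not say whether the numbers pair libraries, and with so few libraries per group these correlations cannot decide it. Median-of-ratios scaling gave 96 calls, 54 higher and 42 lower, 81 of them shared, and moved the median of all genes to -0.0021. The median of the mitosis list was 0.576 with a pseudocount of 0.1, 0.383 with 1, 0.591 at a mean of at least 2 FPKM, and 0.384 to 0.502 with 1 library left out. That of -AS genes was -0.243 with a pseudocount of 0.1 and -0.05 with no filter, and that of -DT genes was -0.29, -0.181 with a pseudocount of 1, and -0.077. That of SNHG genes was -0.099 with no filter and -0.233 to -0.004 with 1 library left out. The summed FPKM of microRNA hosts was 1.04 times the control mean, and 0.977 to 1.098 with 1 library left out, the lowest without 5-FU replicate 3. With fewer libraries the fit has fewer degrees of freedom; otherwise the cause was not tested. Depth is unknown, so what it limits cannot be given.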
